A study of Mus musculus with 2 samples.

Results

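The cells described here are the epithelial cells of mouse cholangiocarcinoma (CCA), a cancer of the bile duct lineage, together with biliary epithelial cells (BECs) of the surrounding liver, from which they were not separated. They were chosen by measured UMIs of marker genes, in single-cell RNA-Seq data. A cell entered the gate if it had a UMI (unique molecular identifier, 1 counted transcript) of at least 3 of the 8 genes *Epcam*, *Krt7*, *Krt8*, *Krt18*, *Krt19*, *Sox9*, *Cldn4* and *Cldn7*. It also had to lack any UMI of *Cd3e* (T cells), *Cd79a* (B cells), *C1qa* (macrophages) and *Upk3b* (mesothelial cells), and to hold under 5% of UMIs from 5 pancreatic acinar genes. Of 31891 cells that had between 500 and 5000 genes detected and mitochondrial UMIs of 10% or less, 1685 entered the gate, 1111 of them with PBS and 574 with anti–PD-1.

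Bile duct cells line the tubes that carry bile out of the liver. They are known by keratins 7 and 19, the adhesion molecule EpCAM and the transcription factor SOX9, and their fate is set in development by Notch signaling. In this model hepatocytes are turned into CCA by an active Notch receptor and an active AKT kinase, so the tumor cells carry biliary genes. Tumor epithelium is the cell type that T cells released by anti–PD-1 treatment would attack, and it answers interferon, cytokines and stress with rapid changes of transcription.

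Both groups were tumor-bearing livers of mice of genotype shYT. Plasmids for NICD (the Notch intracellular domain) and myr-AKT (myristoylated AKT) were given by hydrodynamic tail vein injection. Doxycycline-inducible shRNAs that target *Yap1* and *Wwtr1*, which encode YAP and TAZ, driven ubiquitously by CAG-rtTA3, were induced at day 25, in all cell types and not in the tumor alone. The groups received PBS or the anti-mouse PD-1 antibody RMP1-14 (the latter on days 26, 29 and 32), and livers were taken at day 33. The labels give neither age, sex, the number of animals nor which shYT line was used. The study used both sexes and counts several replicates per group for its T cell maps, and the tables used here do not tie cells to animals. With 1 library per group, every difference below describes these 2 libraries, and treatment, animal and preparation cannot be told apart. The 95% intervals given hold counting error alone.

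The 2 libraries also differed in the sex of the cells. Among the gated cells of the PBS library, 388 (34.9%) had *Xist* UMIs and none of a Y-linked gene, and 71 (6.39%) the reverse. In the anti–PD-1 library 2 cells had only *Xist* and 155 (27.0%) only Y-linked UMIs. The PBS library therefore held cells of both sexes and the anti–PD-1 library nearly none with *Xist*, so sex and treatment cannot be told apart either, and the main results are also given for the 71 and 155 cells with Y-linked UMIs only. The gated cells held 4609562 UMIs with PBS and 1455894 with anti–PD-1, and their median depth was 2160 and 1460 UMIs. Of the barcodes, 219 occur in both libraries and 0 of these were gated in both.

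The cells carried the genes of biliary epithelium, apart from the 8 genes that chose them. Levels are given as CPM (the counts of a gene scaled to the same total of UMIs in the gated cells of each library). *Spp1*, the secreted phosphoprotein osteopontin, was at 23136 CPM with PBS and 17192 CPM with anti–PD-1, and *Clu*, the chaperone clusterin, at 8749 and 9135 CPM. The chloride channel gene *Cftr* was at 86.6 and 69.4 CPM, and *Pkhd1*, of the primary cilium, at 157 and 177 CPM. In all other cells these 4 genes were several times lower, with *Pkhd1* at 28.7 and 21.7 CPM. All other cells means every kept cell outside the gate, including cells with 3 gate genes that an exclusion barred. At least 3 gate genes were found in 2514 PBS and 1532 anti–PD-1 cells, of which 1111 and 574 were gated. *Krt8* was the highest of the gate genes (2772 and 2150 CPM) and *Cldn4* the lowest (23.4 and 28.2 CPM).

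The gate was not pure. *Ptprc*, the pan-leukocyte gene CD45, was at 189 CPM in gated PBS cells and 431 CPM in gated anti–PD-1 cells, against 694 and 1118 CPM in all other cells. Neutrophil markers took 0.273% and 0.696% of UMIs, with 9 of 12 markers at least 2-fold higher, and *S100a8* was at 874 and 2717 CPM. T cell markers took 0.0254% and 0.0596% (7 of 14 at least 2-fold higher), B and plasma cell markers 0.0607% and 0.106% (3 of 7), and Kupffer cell markers 0.0182% and 0.0600% (6 of 9). Erythroid markers had the highest median ratio of the marker lists, with 3 of 3 tested at least 2-fold higher and a sum of 9.76 and 186 CPM. Fibroblast markers went the other way, from 0.167% to 0.0819% of UMIs (10 of 12 at least 2-fold lower), as did endothelial markers, from 0.0560% to 0.00845% (12 of 14), and dendritic cell markers, from 0.0562% to 0.0229% (5 of 9 at least 2-fold lower and 1 higher). Hepatocyte markers took 0.276% and 0.232% of UMIs (2 of 12 at least 2-fold lower and 0 higher). Of all genes tested, 2.8% were at least 2-fold higher and 4.01% at least 2-fold lower. Macrophage markers were at 0.633% and 0.671%, although *C1qa* was barred. Free RNA, doublets and misgated cells were not separated, and no doublet caller was run. Where this bears on a result, it is set beside the level of the gene in all other cells or its value in the cells with at most 1% of UMIs from immune markers, 631 and 154 in number.

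The gated cells were 7.15% of PBS cells (interval 6.75% to 7.57%), and 3.51% were in the gate with anti–PD-1 (interval 3.23% to 3.80%). Anti–PD-1 minus PBS gave −3.64 percentage points (−4.34 to −2.95). The order was the same among cells with UMIs of 3 gate genes before any exclusion, at 16.2% and 9.36%. The exclusion for *C1qa* weighed most on the level, since 1136 PBS and 785 anti–PD-1 cells with 3 gate genes had a *C1qa* UMI. At the edge of the gate, 436 PBS and 268 anti–PD-1 members had exactly 3 gate genes, while 674 and 420 further cells met all other criteria with 2. Of all kept cells, 39.0% with PBS and 53.4% with anti–PD-1 had no UMI of any gate gene. The median depth was 3159 and 2990 UMIs in kept cells and 2160 and 1460 UMIs in gated ones. The part of depth and of free RNA of the gate genes in the shares was not tested. Shares of cells from digested tissue also move with the number of infiltrating cells, so they do not measure tumor size.

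The targeted genes were near the limit of detection in the gated cells. *Yap1* (ENSMUSG00000053110) was counted 40 and 13 times, which is 8.68 and 8.93 CPM (the latter with an interval of 4.75 to 15.3). *Wwtr1* (ENSMUSG00000027803) was counted 74 and 6 times, which is 16.1 CPM (12.6 to 20.2) against 4.12 CPM (1.51 to 8.97). A difference in *Yap1* was not detectable at this depth, and *Wwtr1* was lower with anti–PD-1 on few UMIs. The difference in *Wwtr1* was under 2-fold without the clusters of low gate level described below, and with at least 4 gate genes. The knockdown itself cannot be read from these genes, because no library without the shRNAs was compared.

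Next, genes were compared between the libraries, leaving out the interferon-γ and YAP/TAZ lists, the genes of the gate and sex-linked genes. The log2 ratio is that of anti–PD-1 to PBS, with 5 CPM added to each. Among 10204 genes with at least 10 CPM in a library, 286 (2.8%) were at least 2-fold higher with anti–PD-1 and 409 (4.01%) at least 2-fold lower. Which direction held more genes depended on the cells. There were 357 higher and 253 lower without the clusters of low gate level described below, 406 and 386 without the upper limit on detected genes, 393 and 375 with at least 4 gate genes, and 831 and 708 in the cells with Y-linked UMIs only. A gene was called epithelial-enriched if it was at least 3-fold higher in the gated cells than in all other cells of the library in which it was higher. Those other cells include the barred cells with 3 gate genes. Of 1417 such genes, 26 (1.83%) were at least 2-fold higher and 159 (11.2%) at least 2-fold lower. The counts of enriched genes are a description, because a gene could pass through the library in which it was high. The median ratio was −0.05 over all genes and −0.10 over the enriched ones. In the cells with at most 1% of immune marker UMIs, 118 enriched genes were at least 2-fold higher and 192 lower. In the cells with Y-linked UMIs only, 161 enriched genes were at least 2-fold higher and 346 lower, from far fewer UMIs.

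**Figure D1:**
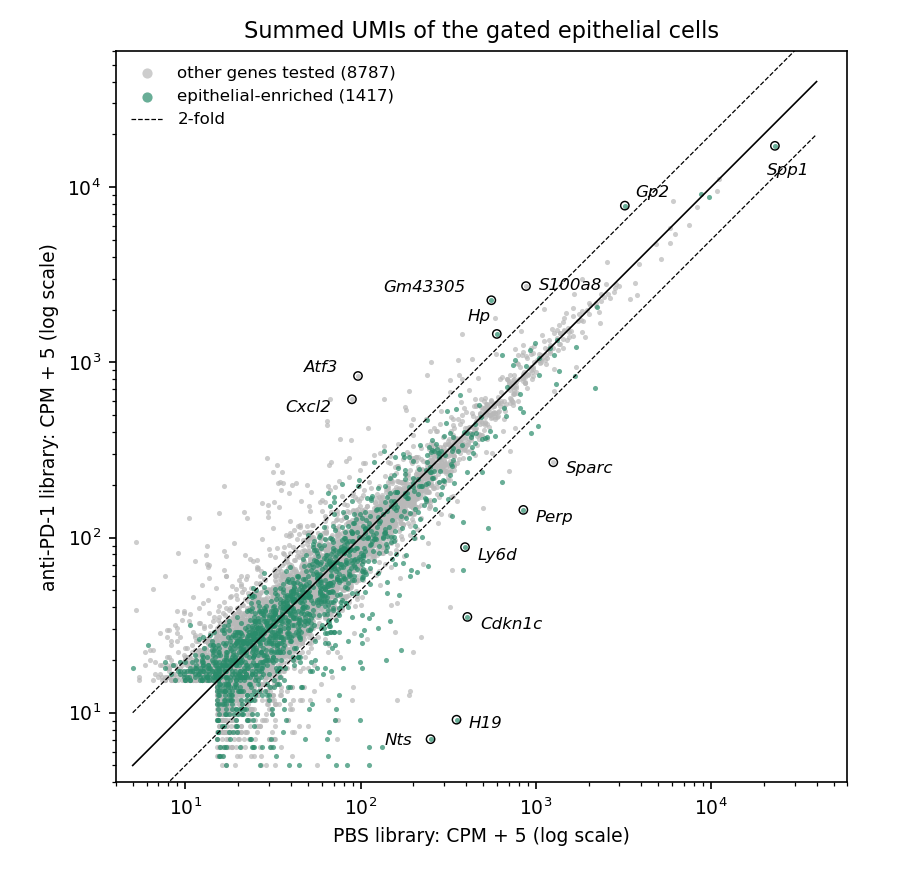
Each point is 1 gene of the gated epithelial cells, with CPM + 5 in the PBS library on the horizontal and in the anti–PD-1 library on the vertical axis, both on log scales; the solid line marks equal levels and the dashed lines a 2-fold difference. Most genes lie between the dashed lines, and 159 epithelial-enriched genes lie below the lower line against 26 above the upper one.

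The programs that define a duct cell were close to even, in cells that had been chosen by related genes in both libraries alike. Of 28 genes of biliary identity and transport 0 reached a 2-fold difference in either direction, with a median log2 ratio of −0.08, and the same held for 11 epithelial progenitor genes (median 0.04). Among 30 junction and keratin genes outside the gate 3 were at least 2-fold lower and 0 higher, against 4.01% and 2.8% of all genes (median −0.02). *Cdh1*, the adherens junction protein E-cadherin, was at 251 and 310 CPM, and *Cldn3*, a tight junction claudin, at 399 and 392 CPM. The lower ones were *Perp*, *Krt20* (106 and 29.5 CPM) and *Krt17* (47.3 and 14.4 CPM). The 83 ribosomal protein genes (median 0.03), 83 nuclear genes of oxidative phosphorylation (−0.04), 19 of glycolysis (0.01) and 26 of lipid and sterol synthesis (−0.15) differed as little, with 1 glycolysis gene, the lactate transporter *Slc16a3*, past 2-fold.

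**Figure D2:**
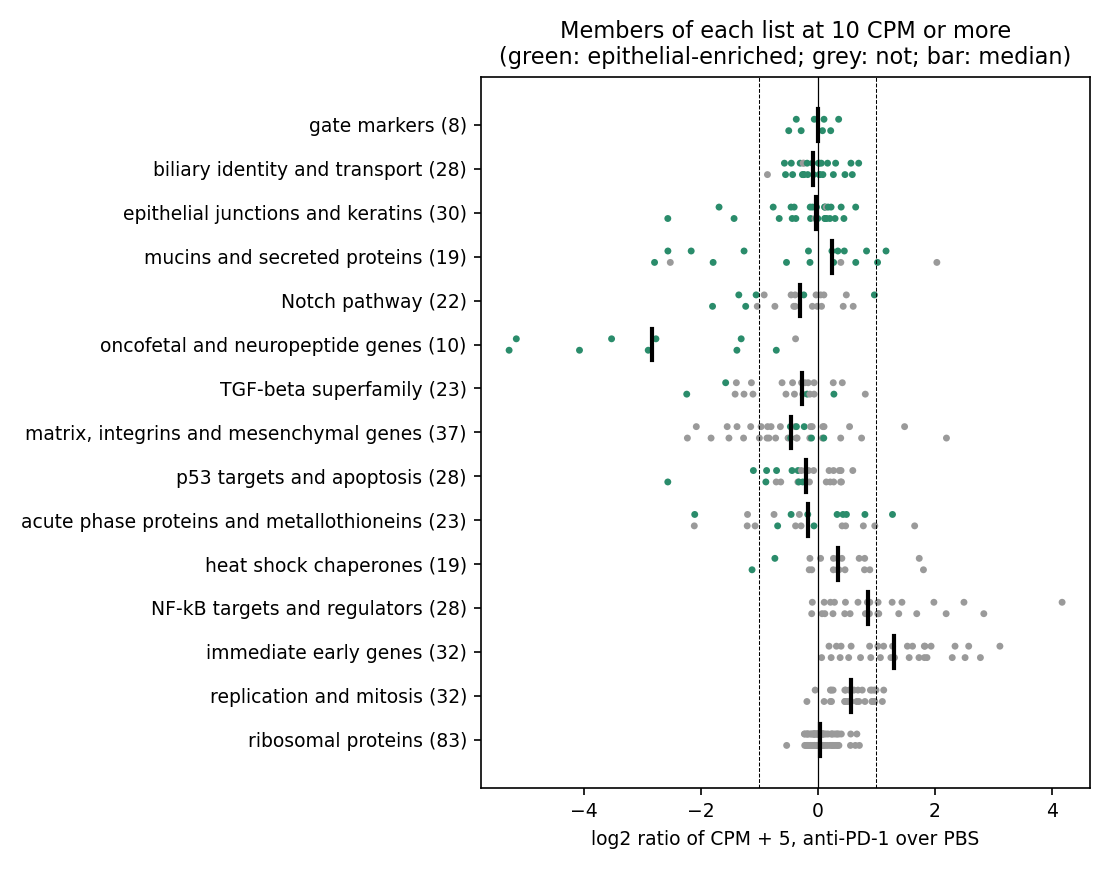
Each row is a gene list, with the number of its genes at 10 CPM or more in parentheses, each point is the log2 ratio of CPM + 5 (anti–PD-1 over PBS) of 1 gene, green where epithelial-enriched and grey where not, and the bar is the list's median. Biliary, ribosomal and respiratory genes sit around 0, immediate early genes lie to the right (median 1.30) and oncofetal genes to the left (median −2.83).

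Among epithelial-enriched genes, the widest differences in summed UMIs were in genes of the fetal and endocrine kind, which were lower with anti–PD-1. Of 10 oncofetal and neuropeptide genes, 8 were at least 2-fold lower and 0 higher, against 4.01% and 2.8% of all genes and 11.2% and 1.83% of enriched ones. Their median log2 ratio was −2.83, or −1.99 with clusters 2 and 12, described below, left out. The list was chosen with earlier results of these data known, and a gene could reach 10 CPM through the PBS library alone. The counts and the median of this list are therefore a description. *H19* (ENSMUSG00000000031, mm10 chromosome 7, 142575529 to 142578143, reverse strand), an imprinted long noncoding RNA of fetal liver, had 1602 UMIs in gated cells with PBS and 6 with anti–PD-1. That is 348 CPM (331 to 365) against 4.12 CPM (1.51 to 8.97), with a log2 ratio of −5.27 (−5.80 to −4.75). *H19* UMIs were found in 10.5% of gated PBS cells and 0.523% of gated anti–PD-1 cells, so most PBS cells had none either.

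*Nts*, the gut peptide neurotensin, had 1132 and 3 UMIs, a log2 ratio of −5.15 (−5.63 to −4.67). *Nmu*, the neuropeptide neuromedin U, had 278 and 1 UMIs, at −3.52 (−3.90 to −3.15). *Sbpl* had 364 and 0 UMIs, at least 38.3-fold lower if 3 counts are taken as the floor of the anti–PD-1 library. The gut hormone *Cck* (43.0 and 2.06 CPM) was lower too, whereas the prohormone-processing enzyme *Cpe* was at 25.6 and 18.5 CPM. In the 71 and 155 cells with Y-linked UMIs only, *H19* was at −6.83, as low as or lower than in all gated cells. That value rests on few cells, since 10 of these PBS cells and 1 of these anti–PD-1 cells had an *H19* UMI.

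Some other imprinted genes were lower besides *H19*. *Cdkn1c*, an imprinted inhibitor of the cell cycle, was at 402 and 30.2 CPM (log2 ratio −3.53, −3.90 to −3.16). *Meg3*, an imprinted noncoding RNA, was at 165 and 17.9 CPM (−2.90, −3.34 to −2.45), and its neighbour *Rian* at 45.8 and 5.49 CPM. Of 17 imprinted genes, a list added after values were seen, 7 were at least 2-fold lower, 10 were under 2-fold and 0 were higher. Of all genes, 4.01% were as much lower and 2.8% as much higher. Because of how the list was made, its counts and median are a description. The median was −0.71, or −0.28 with clusters 2 and 12 left out. *Grb10*, at 34.3 and 41.9 CPM, was the 1 member above 0.

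These genes were not spread evenly over the PBS cells. The members were clustered without the interferon, YAP/TAZ, sex-linked, acinar, immediate early and heat shock genes, which gave 17 clusters. Cluster 2, led by *Actc1*, *Nmu*, *Podxl*, *Srd5a1* and *Ptn*, held 185 PBS and 4 anti–PD-1 cells and 804 of the 1602 *H19* UMIs of the PBS library. *Nmu* was at 248 CPM in it and 12.7 CPM in the other members, and *Nts* at 569 and 124 CPM. Even there, *Nmu* and *Nts* were found in only 18.0% and 21.7% of cells. Cluster 12, led by *Dlk1*, *Dclk1*, *Cdh15* and *Fabp7*, held 63 and 3 cells and 227 *H19* UMIs. *Dlk1*, a fetal gene like a Notch ligand (59.9 and 19.9 CPM over all gated cells), describes this cluster alone, since 259 of its 276 PBS UMIs and all 29 of its anti–PD-1 UMIs lay there, in 9.52% of the 63 PBS cells. A cluster made up mostly of 1 library may be that library, or 1 animal of it, rather than a cell type. Some clusters shared by both libraries had *H19* UMIs with PBS alone. Cluster 3 had 327 *H19* UMIs in its 133 PBS cells and none in its 39 anti–PD-1 cells, and cluster 8, led by cycling genes, had 120 UMIs in 73 cells and 0 in 28. In cluster 6, led by *Gm26917* and *Csmd1*, *H19* was at 131 CPM on 20 UMIs with PBS and 86.2 CPM on 5 UMIs with anti–PD-1, which were 5 of the 6 *H19* UMIs of that library. With clusters 2 and 12 left out the log2 ratio of *H19* was −4.25. Of the PBS cells with an *H19* UMI, 40 had only *Xist* and 10 only Y-linked UMIs, so cells with either sign were among them.

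*Perp* (ENSMUSG00000019851, chromosome 10, 18845020 to 18857073, forward strand), a p53 target that builds desmosomes, was found in more cells than *H19*. It was at 843 CPM (817 to 870) against 139 CPM (120 to 159), with a log2 ratio of −2.56 (−2.76 to −2.36). When each cell was thinned to 1000 UMIs, which left 956 PBS and 447 anti–PD-1 cells, *Perp* was found in 37.7% and 12.3%, against 4.36% and 1.37% of T cells. Without thinning the shares were 54.7% and 20.03%. By cluster, *Perp* was at 1641 and 212 CPM in cluster 3 and at 697 and 147 CPM in cluster 5, but at 179 and 197 CPM in cluster 9. The lower level was therefore neither a matter of cluster 2 alone nor present in every cluster. Of 28 p53 targets and apoptosis genes 2, *Perp* and *Zmat3*, were at least 2-fold lower, against 4.01% of all genes, and *Cdkn1a*, the cell cycle inhibitor p21, was at 842 and 515 CPM (log2 ratio −0.70).

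Further epithelial-enriched genes with low ratios were *Ptn*, the growth factor pleiotrophin (97.2 and 13.1 CPM), *Vtn*, the plasma and matrix protein vitronectin (531 and 108 CPM), *Ly6d*, a surface antigen (389 and 83.1 CPM), *Guca2b*, the gut peptide uroguanylin (121 and 25.4 CPM), and *Fcgbp*, a mucus protein (62.9 and 12.4 CPM). *Ly6d* was at 4757 CPM in cluster 9, with 63 PBS and 19 anti–PD-1 cells, and at 51.9 CPM in the other members. *Pir*, on the X chromosome, *Srd5a1*, a steroid reductase, and *Fads3* completed the 12 with the lowest ratios, at log2 ratios between −2.16 and −2.03. The protease inhibitor *Serpinb6a* was the most abundant gene in this group of lower genes that was named from a list, at 2163 and 710 CPM (−1.60, −1.69 to −1.51). With clusters 2 and 12 left out, the 159 lower enriched genes became 73. *Ptn* then went from a log2 ratio of −2.50 to −1.29, *Srd5a1* from −2.13 to −1.08, *Fads3* from −2.03 to −1.18 and *Pir* from −2.16 to −1.25. *Perp* was then at −1.97, *Cdkn1c* at −2.29 and *Meg3* at −1.94, while *Vtn* was at −2.18 and *Ly6d* at −2.59. In the cells with Y-linked UMIs only, *Fcgbp* went from −1.97 to −1.03, *Guca2b* from −2.05 to −1.21 and *Ly6d* from −2.16 to −1.67, whereas *Perp* was at −3.07, *Ptn* at −3.40 and *Cdkn1c* at −4.33.

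**Figure D3:**
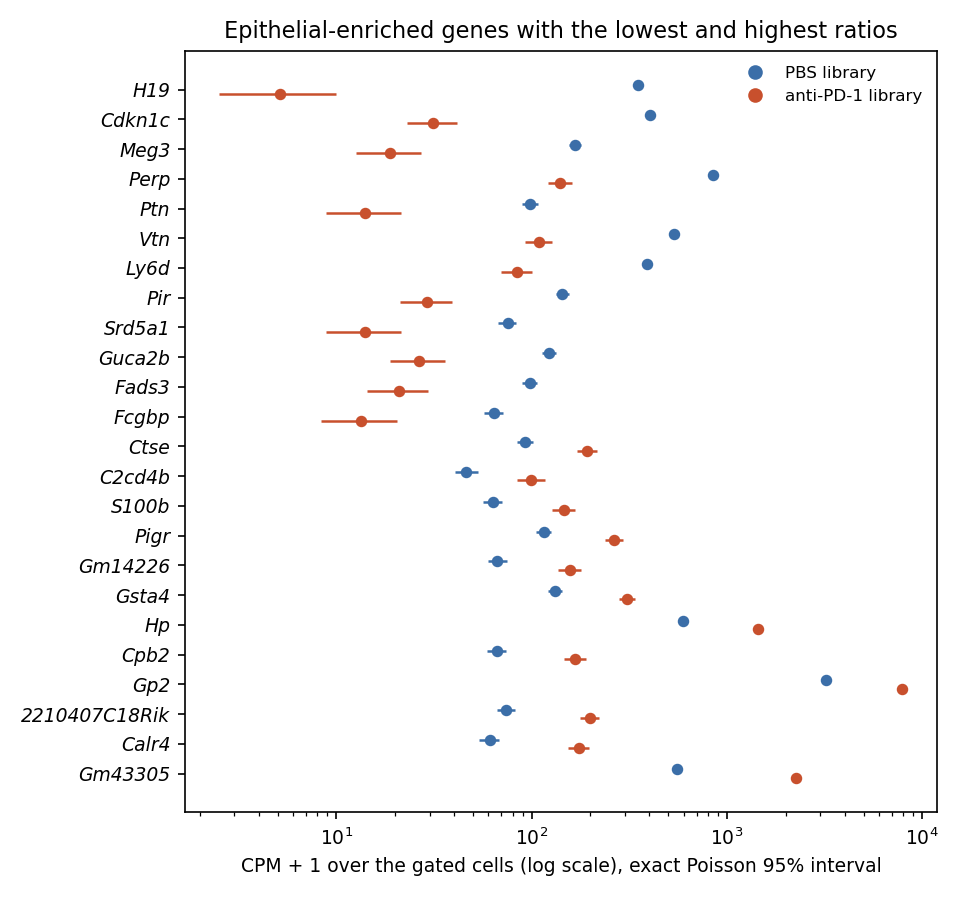
Levels in the gated cells of the PBS and the anti–PD-1 library (CPM + 1, log scale, with exact Poisson 95% intervals) are drawn for the epithelial-enriched genes with the highest and the lowest ratios. *Gp2* goes from 3214 to 7832 CPM, and *H19* from 348 to 4.12 CPM.

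Notch targets were unequal. Of 22 Notch pathway genes, 5 were at least 2-fold lower and 0 higher, against 4.01% and 2.8% of all genes (median log2 ratio −0.31). The transcriptional repressors *Hey2* (31.5 and 5.49 CPM), *Heyl* (137 and 50.8 CPM) and *Hey1* (63.1 and 24.0 CPM) and the feedback inhibitor *Nrarp* (488 and 233 CPM) were lower, as was the receptor *Notch4* (10.8 and 2.75 CPM), known from endothelium. Of 14 endothelial markers in the gate 12 were at least 2-fold lower as well, and their part in the Notch genes was not tested. *Hes1*, a repressor that Notch also induces, went the other way, from 233 CPM (220 to 248) to 462 CPM (427 to 498), with a log2 ratio of 0.97. *Notch1*, whose intracellular domain was supplied by plasmid, was at 278 and 235 CPM. Whether transcripts of the plasmid were counted as *Notch1* is not given in the sources used here.

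Genes of mucus and host defense differed in both directions. Of 19, 6 were at least 2-fold lower and 3 higher, against 4.01% and 2.8% of all genes (median log2 ratio 0.24, or −0.22 without clusters 2 and 12). The matrix protease *Mmp7* was at 134 and 15.1 CPM, the regenerating protein *Reg1* at 381 and 60.4 CPM, and the mucosal glycoprotein *Dmbt1* at 1029 and 427 CPM. The trefoil peptide *Tff1* had 109 and 0 UMIs, at least 11.5-fold lower with 3 counts as the floor. *Dmbt1*, *Reg1* and *Tff1* led cluster 9, which had 63 cells of the PBS and 19 of the anti–PD-1 library. Inside it *Dmbt1* was at 15329 and 7784 CPM. *Slpi*, a protease inhibitor of mucus, was higher, at 83.3 and 357 CPM, but it was higher still in all other cells (258 and 858 CPM).

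The epithelial-enriched genes with the highest ratios included *Gp2*, *Hp*, *Pigr* and *Ctse*. *Gp2* (ENSMUSG00000030954, chromosome 7, 119442537 to 119459285, reverse strand), a surface glycoprotein that binds bacterial fimbriae and is also a product of pancreatic acinar cells, went from 3214 CPM (3163 to 3267) to 7832 CPM (7689 to 7977), with a log2 ratio of 1.28 (1.25 to 1.32). Acinar genes moved with it. The 5 acinar genes of the gate summed to 13.9 and 90.7 CPM in the gated cells and to 156 and 72313 UMIs in all kept cells. Among 5 further acinar genes tested, 3, *Gp2* itself, *Sycn* and *Rnase1*, were at least 2-fold higher and *Reg1* lower, against 2.8% and 4.01% of all genes. *Sycn*, of the secretory granule, was at 15.6 and 48.1 CPM, far under *Gp2*, and the part of acinar RNA in *Gp2* was not tested. In cells thinned to 1000 UMIs, it was found in 52.9% and 81.7%, against 15.98% and 19.3% of T cells. *Hp*, the hemoglobin scavenger haptoglobin, went from 594 to 1447 CPM (log2 ratio 1.28), *Pigr*, which carries IgA into bile, from 114 to 263 CPM (1.17, 0.98 to 1.35), and *Ctse*, the protease cathepsin E, from 91.8 to 192 CPM (1.02, 0.81 to 1.23).

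The noncoding transcript *Gm43305* had the highest ratio of an enriched gene, from 552 to 2256 CPM (2.02, 1.95 to 2.10). *Cpb2*, a carboxypeptidase that slows clot lysis, was at 65.3 and 166 CPM, *Gsta4*, which detoxifies lipid aldehydes, at 131 and 308 CPM, and *S100b*, a calcium-binding protein, at 62.0 and 146 CPM. Cluster 4, led by *Gp2*, *2210407C18Rik*, *Hp* and *Gsta4*, held 34 PBS and 137 anti–PD-1 cells, so it too may stand for a library instead of a type. *Gp2* was at 16463 CPM in cluster 4 and 3692 CPM outside it. Cluster 1, described below, had 30 PBS and 172 anti–PD-1 cells, and *Gp2* at 8778 CPM against 4142 CPM elsewhere. Split by library, the log2 ratio of *Gp2* was 0.39, 0.23, 0.37 and −0.02 in clusters 1, 4, 5 and 6. It was 2.29 in cluster 3 and 1.39 in cluster 2, which had 4 anti–PD-1 cells. The part of cluster make-up in the higher genes was not tested. With clusters 2 and 12 left out, 7 genes just named fell below 2-fold, to log2 ratios of 0.95 for *Gp2* and *Cpb2*, 0.81 for *Pigr*, 0.65 for *Ctse*, 0.87 for *Gsta4*, 0.93 for *S100b* and 0.97 for *2210407C18Rik*. *Gm43305* was then at 1.89 and *Hp* at 1.07. In cells with Y-linked UMIs only, *Gp2* was at 1.03, *Hp* at 1.62, *Ctse* at 0.57 and *Pigr* at 0.48.

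Acute phase genes differed in both directions. Of 23 acute phase and metallothionein genes, 2, *Hp* and *Socs3* (a feedback inhibitor of cytokine signaling, 34.5 and 120 CPM), were at least 2-fold higher. Another 5 were at least 2-fold lower, including *Hpx* (90 and 1 UMIs) and *Fgb* (22.3 and 6.87 CPM), a heme carrier and a fibrinogen chain of hepatocytes. Of all genes 2.8% were as much higher and 4.01% as much lower. The list summed to 0.353% and 0.501% of UMIs, while its median log2 ratio was −0.17, or 0.41 in the cells with at most 1% of immune marker UMIs. Cluster 17, led by *Hpx* and *Fgb*, held 17 PBS and 0 anti–PD-1 cells. *Lcn2*, an iron-binding defense protein of stressed epithelium, was at 923 and 1163 CPM.

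Immediate early genes were higher in the anti–PD-1 library throughout. They are transcribed within minutes of a stimulus, and they encode factors such as AP-1 (FOS and JUN), EGR1 and the NR4A receptors, along with phosphatases and RNA-binding proteins that shut the response down. All 32 tested had a ratio above 0 and 21 were at least 2-fold higher, against 2.8% of all genes, with a median of 1.30. Together they took 0.466% of UMIs with PBS and 1.24% with anti–PD-1.

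*Atf3* (ENSMUSG00000026628, chromosome 1, 191170296 to 191218039, reverse strand), a stress-induced repressor, was counted 422 times with PBS and 1209 times with anti–PD-1. This gave 91.5 CPM (83.0 to 101) against 830 CPM (784 to 879). Its log2 ratio was 3.11 (2.96 to 3.27). The orphan receptor *Nr4a1* (ENSMUSG00000023034, chromosome 15, 101254269 to 101274795, forward strand) went from 59.2 to 436 CPM (2.78, 2.59 to 2.97). The AP-1 subunits were *Fosb* at 29.7 and 203 CPM, *Junb* at 375 and 1451 CPM, *Fos* at 353 and 1032 CPM and *Jun*, which stayed under 2-fold, at 589 and 1109 CPM. *Egr1* was at 183 and 682 CPM, and *Zfp36*, which destabilizes cytokine mRNAs, at 234 and 841 CPM. The ERK phosphatase *Dusp6* had the lowest ratio of the list, at 31.2 and 33.0 CPM.

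To show the sequence in front of genes that moved together, the 250 bases before the transcription start are printed for the 3 immediate early genes with the highest ratios whose window holds a TGACG motif and no annotated exon (RefSeq, GRCm38.p6, 5′ to 3′ in the direction of transcription). Capitals mark TGACG, the core of the element bound by CREB and ATF proteins, or CGTCA, the same motif on the other strand. The windows are chr15:101266596-101266845 on the forward strand for *Nr4a1*, chr8:84978749-84978998 on the reverse strand for *Junb* and chr2:57124004-57124253 on the reverse strand for *Nr4a2*, an orphan receptor gene at 12.1 and 55.6 CPM.
Nr4a1: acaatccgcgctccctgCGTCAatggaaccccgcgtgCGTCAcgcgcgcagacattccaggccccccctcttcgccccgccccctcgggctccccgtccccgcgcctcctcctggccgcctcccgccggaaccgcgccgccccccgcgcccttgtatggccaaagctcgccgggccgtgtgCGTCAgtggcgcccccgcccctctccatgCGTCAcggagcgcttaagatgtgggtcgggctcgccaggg
Junb: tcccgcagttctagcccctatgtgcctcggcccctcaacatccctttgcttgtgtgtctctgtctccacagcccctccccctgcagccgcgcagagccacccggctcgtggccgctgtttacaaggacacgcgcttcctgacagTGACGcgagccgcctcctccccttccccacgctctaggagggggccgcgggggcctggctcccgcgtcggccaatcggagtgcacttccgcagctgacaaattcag
Nr4a2: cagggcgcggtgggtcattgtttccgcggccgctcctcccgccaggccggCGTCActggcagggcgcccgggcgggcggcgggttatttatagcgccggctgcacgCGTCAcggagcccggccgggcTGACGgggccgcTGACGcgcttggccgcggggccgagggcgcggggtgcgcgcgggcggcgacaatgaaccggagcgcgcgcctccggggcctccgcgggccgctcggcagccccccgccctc
The motif occurred 4 times before *Nr4a1*, 1 time before *Junb* and 4 times before *Nr4a2*. It was found before at least 1 start of 18 of 28 immediate early genes with a promoter in the table (64.3%), and of 16 of the 20 that were at least 2-fold higher. Of all 27025 genes 19.8% had it, and of the 8135 tested genes 31.2%. A match describes the letters only.

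Immediate early genes were also higher in other cell types. The median log2 ratio of the same list was 0.89 in T cells with a *Cd3e* UMI, 1.22 in macrophages with a *C1qa* UMI and 1.79 in fibroblasts, and 0 of its genes were epithelial-enriched. In all other cells *Nr4a1* went from 120 to 737 CPM, at higher levels than in the gated cells, and *Atf3* from 123 to 461 CPM, which with anti–PD-1 was a lower level than in the gated cells. RNA from other cells inside the gate could carry part of the values, which was not tested gene by gene. Among the cells with at most 1% of immune marker UMIs the list's median was 1.36 and *Atf3* was at 3.81, no smaller than in all gated cells. In the cells with Y-linked UMIs only the median was 1.31. Tissue was digested with enzymes before capture, and handling of the 2 preparations cannot be told apart from treatment.

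**Figure D4:**
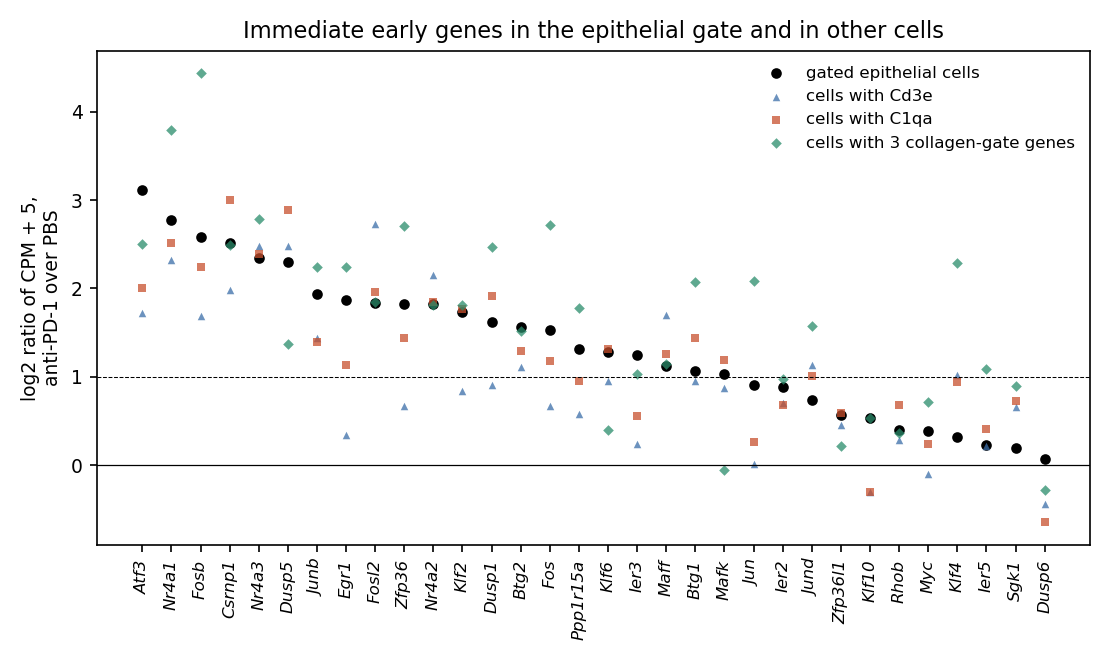
For each immediate early gene the log2 ratio of CPM + 5 (anti–PD-1 over PBS) is drawn in the gated epithelial cells and in the gated T cells, macrophages and fibroblasts, with the solid line at 0 and the dashed line at 2-fold. All 32 genes lie above 0 in the epithelial cells, with medians of 1.30 there and 0.89, 1.22 and 1.79 in the other cell types.

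The levels were also compared cell by cell and cluster by cluster. After thinning to 1000 UMIs, the immediate early genes gave a median of 3 UMIs per PBS cell and 8 per anti–PD-1 cell. The 90th percentiles were 9 and 24.4, and 69 PBS cells (7.22%) and 8 anti–PD-1 cells (1.79%) had none. The share of UMIs from these genes was higher with anti–PD-1 in 16 of the 16 clusters that held cells of both libraries, some of them with 3 to 6 anti–PD-1 cells. Leaving out the clusters of low gate level, it was higher in 8 of the 8 clusters with at least 10 cells of both libraries, and the median log2 ratio of the list was 1.34. Cluster 7, led by *Alb*, *Ahsg*, *Plet1* and *Nrn1*, had the highest share in the anti–PD-1 library, 2.74% against 1.13% in the PBS library, and *Atf3* there was at 499 and 3881 CPM. Cluster 3 had the lowest share in the anti–PD-1 library, 0.279% against 0.199%.

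NF-κB targets were also higher. Of 28 targets and regulators, 12 were at least 2-fold higher and 0 lower, against 2.8% and 4.01% of all genes (median log2 ratio 0.87). The feedback inhibitors *Tnfaip3* (31.2 and 200 CPM), *Nfkbiz* (62.7 and 263 CPM) and *Nfkbia* (426 and 1036 CPM) were among them. *Il6* had 1 and 130 UMIs, in 0.09% and 2.96% of cells. *Il1b*, a cytokine of neutrophils and macrophages, was at 59.7 and 457 CPM, and in all other cells at 139 and 941 CPM. In the cells with at most 1% of immune marker UMIs the NF-κB median was 0.58 and *Il1b* was at 1.04. The 12 genes with the highest ratios among all genes included *Il1r2*, *Ccl4*, *G0s2*, *Ighg2c*, *Cxcl2*, *Hdc* and *Ccrl2*. All of these had higher levels in other anti–PD-1 cells than in the gated ones. Cluster 11, a cluster of low gate level with 36 PBS and 33 anti–PD-1 cells led by the neutrophil genes *S100a8* and *S100a9*, held 70.9% of the *Il1b* UMIs of the anti–PD-1 library, 76.9% of *Cxcl2*, 77.1% of *G0s2*, 80.3% of *Hdc*, 71.4% of *Il1r2* and 60.1% of *Ccl4*. Without the clusters of low gate level *Il1b* was at 13.6 and 143 CPM, and *Cxcl2* at 14.8 and 148 CPM. In the cells with at most 1% of immune marker UMIs *Hdc* was at a log2 ratio of 0.32, while *Cxcl2* was at 2.85, *Ighg2c* at 1.97, *Ccl4* at 1.82, *Il1r2* at 1.49 and *G0s2* at 1.41, all still past 2-fold.

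In other stress lists few genes passed 2-fold, which 2.8% of all genes did upward and 4.01% downward. Of 19 heat shock chaperones 2 were at least 2-fold higher, the inducible *Hspa1a* (80.5 and 280 CPM) and *Hspa1b* (47.1 and 177 CPM), a near-identical pair whose counts may be split, and 1, *Hspb8*, was lower (102 and 44.0 CPM). Of 27 genes of endoplasmic reticulum and integrated stress 2 were at least 2-fold higher, *Cebpb* (132 and 611 CPM), a transcription factor of the acute phase, and *Nupr1* (93.9 and 238 CPM). *Cebpb* was at 460 and 1442 CPM in all other cells. Among 10 EGF receptor family genes, ligands and regulators 2 were at least 2-fold higher. They were *Hbegf*, a ligand shed from the membrane (34.5 and 101 CPM), and the inhibitor *Spry2*, at 4.99 and 15.8 CPM on 23 UMIs in each library.

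Over all gated cells, genes of cell division had ratios mostly above 0 and mostly under 2-fold. Of 32 replication and mitosis genes 30 had a ratio above 0 and 2 were at least 2-fold higher (2.8% of all genes were), with a median of 0.57. *Mcm2*, of the replication helicase, was at 18.7 and 46.7 CPM, *Top2a*, a topoisomerase, at 52.7 and 86.5 CPM, and *Mki67* at 61.0 and 74.2 CPM. Cluster 8, led by *Ube2c*, *Top2a* and *Mki67*, held 6.57% of PBS and 4.88% of anti–PD-1 members, the opposite order. T cell markers in the gate were higher as well, and their part in these values was not tested.

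Some matrix and TGF-β genes were lower, as were the fibroblast and endothelial markers in the gate, whose part in these values was not tested gene by gene. Of 37 genes of matrix, integrins and mesenchyme 8 were at least 2-fold lower and 2 higher, against 4.01% and 2.8% of all genes (median log2 ratio −0.46, or −0.36 without the clusters of low gate level). Of 23 TGF-β superfamily genes 7 were at least 2-fold lower and 0 higher (median −0.28, or −0.15 without those clusters). *Sparc*, a collagen-binding protein, went from 1253 to 264 CPM and the membrane protease *Mmp14* from 319 to 130 CPM. *Inhba*, an activin subunit, went from 47.7 to 6.18 CPM, the receptor *Tgfbr1* from 124 to 48.8 CPM and the target *Id3* from 349 to 157 CPM. *Plaur*, the urokinase receptor (34.1 and 174 CPM), and *Thbs1*, thrombospondin (61.8 and 182 CPM), were higher, and both were higher still in all other anti–PD-1 cells.

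How far the ratios moved when clusters of low gate level were left out differed by gene, and the source of the RNA was not tested. In 6 of the 17 clusters the gate genes summed to under 50% of their level over all members. These clusters held 246 PBS (22.1%) and 82 anti–PD-1 members (14.3%), and those other than cluster 12 were led by genes of cytotoxic lymphocytes, neutrophils, antigen-presenting cells, endothelium or fibroblasts. Without them, *Col3a1*, a fibrillar collagen of fibroblasts, went from a log2 ratio of −3.04 to −0.73, *Bgn*, an X-linked matrix proteoglycan, from −2.44 to −0.23, *Sparc* from −2.23 to −1.41, and the fibroblast list from a median of −2.05 to −0.74. *Cdkn1c* went from −3.53 to −2.68, with 54.8% of its PBS UMIs in cluster 12, and *Vtn* from −2.25 to −3.42. Other genes moved less, with *H19* at −5.26, *Meg3* at −2.62, *Perp* at −2.60, *Ly6d* at −2.39, *Hes1* at 0.94, *Gp2* at 1.18, *Nr4a1* at 2.60 and *Atf3* at 3.05. Cluster 1, with 30 PBS and 172 anti–PD-1 cells and a median of 1044 UMIs, was not among them, although plasma cell and Kupffer cell genes led it (*Ighg2c*, *Igkc*, *Ighm*, *Cd5l* and *Clec4f*). It held 2.70% of PBS and 29.97% of anti–PD-1 members, and like cluster 2 it may stand for its library. Clusters 7 and 17 were not among the 6 either. Hepatocyte genes were among those that led them, while their gate genes summed to 6965 and 11145 CPM. The gated share without the 6 clusters was 5.57% of PBS and 3.01% of anti–PD-1 cells.

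**Figure D5:**
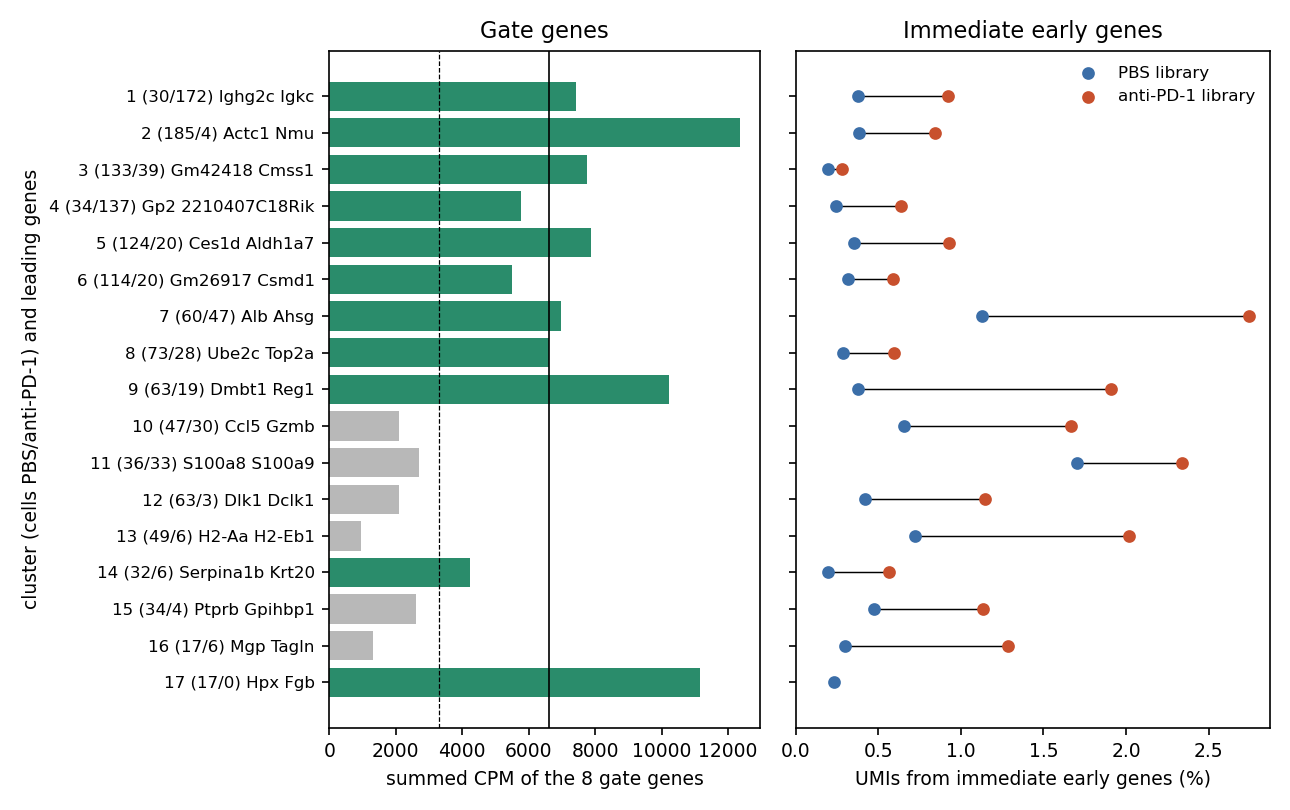
For each of the 17 clusters of gated cells (cells of the PBS and anti–PD-1 library and leading genes on the vertical axis) the left panel gives the summed CPM of the 8 gate genes and the right panel the percentage of UMIs from immediate early genes in each library. The gate genes are low in clusters 10 to 13, 15 and 16, and the immediate early share is higher in the anti–PD-1 library in all 16 clusters with both libraries.

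Ligands and inflammatory genes outside the interferon list differed in both directions. Of 13 checkpoint and T cell ligand genes 3 were at least 2-fold higher and 1 lower, against 2.8% and 4.01% of all genes (median log2 ratio 0.47). The costimulatory ligand *Cd80* was at 4.77 and 33.0 CPM, and in all other cells at 25.2 and 50.4 CPM. *Nectin3*, an adhesion ligand of T and NK cell receptors and an epithelial-enriched gene, was at 108 and 49.5 CPM. *Ptgs2*, which makes prostaglandins, was at 8.03 and 74.9 CPM and the inflammasome sensor *Nlrp3* at 6.29 and 68.7 CPM, both with higher levels in all other anti–PD-1 cells. Of 18 complement and coagulation genes 3 were at least 2-fold lower and 2 higher, again against 4.01% and 2.8%. Their median log2 ratio was −0.56, and it turned to 0.09 without the clusters of low gate level. *C3*, the central complement protein, was at 308 and 520 CPM and *C4b* at 73.1 and 168 CPM. The left-out interferon-γ list had a median of 1.03 over 166 genes, and the left-out YAP/TAZ list one of −0.41 over 26.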

How the data were processed

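The deposited files hold raw counts of UMIs for each gene in each cell barcode. The authors produced these counts with the Singleron software, which demultiplexed and aligned the reads to mm10. Its version, its annotation and how it treated strand and shared reads are not given in the sources used here, so overlapping genes and near-identical copies are uncertain. The submitters' processing notes also name Seurat 4.3. Both libraries list 32589 genes, and a symbol listed more than once (48 symbols) was kept as separate entries. There were 0 columns of other samples.

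Of 19397 and 19451 barcodes, 15531 and 16360 were kept. UMIs of the gated cells were summed per library (Python 3.11.15, numpy 2.4.6, scipy 1.17.1, pandas 2.3.3), with exact Poisson intervals for levels, Clopper-Pearson intervals for shares, and intervals of log2 ratios from the Poisson variances of both counts. PCR errors in UMIs and differences between animals are outside these intervals. There is no test between the groups. The summation and the 2-fold rule were tested on simulated data. Thinning drew 1000 UMIs per cell at random and left out 155 and 127 shallower members. T cells with a *Cd3e* UMI, of which 1765 and 1679 were thinned (median depth before thinning of all 2765 and 3434 UMIs), gave the background. Clusters used 1500 variable genes, counts scaled to 10000 per cell and log-transformed, 20 principal components, 15 neighbours and Leiden resolution 1.2 (leidenalg 0.10.2, igraph 0.11.9). Other resolutions were looked at before this one was taken, and clusters were left unnamed.

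Named genes were the 12 with the highest and the 12 with the lowest ratio, among all genes and among epithelial-enriched genes, that had a UMI in at least 10% of members and at least 50 UMIs in the library where they were higher. From each list the highest and lowest ratio and the 4 most abundant genes were added, with *Yap1*, *Wwtr1*, the gate genes and markers of other cells. Other genes named in the text were picked after their values were seen, mostly as further members of the same lists. Members and lists were chosen with earlier results of these data known. Coordinates are from GENCODE vM21 (mm10) and promoters from RefSeq. Figures were drawn with matplotlib 3.10.9.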

Additional observations from a re-analysis of the deposited data

Results flagged for a closer look

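The limit on pancreatic acinar genes removed 5 cells of the anti–PD-1 library and 0 of the PBS library, which allows a share of up to 0.0237% of PBS cells by the exact interval. These 5 cells met every other criterion of the gate, lie outside the comparisons above, and held 13288 UMIs of the 5 acinar genes. They were flagged because the control library had none. Their share was 0.0306% of anti–PD-1 cells (0.00992% to 0.0713%), an interval that overlaps that of the PBS library. Keeping them raised the number of epithelial-enriched genes at least 2-fold higher with anti–PD-1 from 26 to 45.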

How the results depend on the processing

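No paired analysis was possible because each group had 1 library, and for the same reason no replicate could be left out. Leaving out the clusters with low gate levels, clusters 2 and 12, cluster 1, or cells under 1000 UMIs, and not applying the *C1qa* exclusion, were chosen after seeing the data. The count of enriched genes at least 2-fold higher, 26, was the least stable. It was 42 at 20% mitochondrial UMIs, 40 with at least 2 and 42 with at least 4 gate genes, 45 without the acinar limit, 56 and 11 with 1 and 20 CPM added, 118 in cells with at most 1% immune UMIs, 60 in cells without *Ptprc*, 47 without the deepest 10% of cells, 161 in cells with Y-linked UMIs only and 16 without clusters 2 and 12. Enriched genes at least 2-fold lower, 159, were 77 with 20 CPM added, 346 in Y-linked cells and 73 without clusters 2 and 12. Over all genes the 286 higher were 450 and 137 with 1 and 20 CPM added, 831 in Y-linked cells and 357 without clusters of low gate level. The 409 lower were 147 with 20 CPM added, 708 in Y-linked cells and 253 without clusters of low gate level. The causes were not tested, beyond the fewer UMIs in the smaller sets. The share difference of −3.64 points was −4.71 at 20% mitochondrial UMIs, −5.42 and −2.48 with 2 and 4 gate genes, −2.56 without clusters of low gate level and −6.48 without the *C1qa* exclusion. *Col3a1* reversed, to 0.51 in Y-linked cells. Of 732 list medians under alternatives 75 had the other sign than first reported, and the complement and coagulation list, at −0.56, was the farthest from 0 of these. Among single genes, only those with the highest and lowest ratios, *Yap1* and *Wwtr1* were followed through these alternatives, 42 in number. Other genes named from lists were not. Of the 41 of the 42 that were past 2-fold, 28 stayed past it under every alternative run. The others were *2210407C18Rik*, *Bgn*, *C2cd4b*, *Col3a1*, *Cpb2*, *Ctse*, *Gm14226*, *Gp2*, *Gsta4*, *Hdc*, *Pigr*, *S100b* and *Wwtr1*. Scaling by median ratios (factor 0.962) changed no count by over 1.5 times. The 1 UMI minimum was not run for single genes, on which it does not act.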
